A study of Mus musculus with 12 samples.

Results

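The genes described here encode the proteasome, the machine that breaks down ubiquitin-tagged proteins. They are the genes whose symbols begin with Psma, Psmb, Psmc or Psmd and a digit, leaving out the immunoproteasome subunits Psmb8, Psmb9 and Psmb10. The rule took 37 of the 18193 genes measured. Of these, 8 belong to the alpha rings and 8 to the beta rings of the 20S core, 6 to the ATPase ring and 11 to the other subunits of the 19S regulatory particle. A further 3, Psmd5, Psmd9 and Psmd10, carry a subunit's name but act as assembly factors. The last, Psmc3ip, is no subunit: it encodes a cofactor of meiotic recombination and was taken only for its symbol. The rule goes by symbol and uses no measured value, though the set was proposed with earlier results of these data known.

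RNA came from brown adipose tissue, which burns fat to make heat, in adult male ob/ob mice that were 3 months old and ate normal chow. All 12 mice, controls included, are obese because they lack leptin. The 6 treated mice, called anti-FGFR1, were injected once intraperitoneally with 1 mg/kg of an antibody that switches on FGFR1, a receptor for fibroblast growth factors. The 6 controls received a control IgG, whose dose the labels do not give, and were pair-fed, that is, their food was matched to that of treated mice. Tissue was taken on day 4 in both groups, and each mouse gave 1 array. Values are log2 expression, in which 1 unit is a doubling. They rank arrays for a given probe set but do not rank genes against each other, since probe sets bind with different strength.

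The 20S core is a barrel whose inner beta rings cut proteins and whose outer alpha rings form the gate. The 19S particle caps the barrel: its ATPases unfold the substrate and open the gate, and its other subunits bind ubiquitin chains and remove them. Most subunits are made in fixed proportion, and the transcription factor Nfe2l1 is known to raise their genes together when proteasome capacity falls short. In brown fat of mice Nfe2l1 and the proteasome have been tied to tolerance of cold, when the tissue burns fat and renews many proteins.

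After anti-FGFR1, 35 of the 37 genes did not pass the test, 1 fell and 1 rose. Psmd8, a subunit of the 19S lid, fell by 21.0%. Psmc2, an ATPase of the 19S base, rose by 13.7%, and this call depended on the setting. A gene was called changed when its p from limma, adjusted over all genes by the Benjamini-Hochberg method, was under 0.05. By that rule 8.03% of all genes tested were called, 2.94% higher and 5.09% lower, so 2 of 37 is no larger a share than that of all genes. Of the called genes 63.4% were lower. With the deposited values quantile normalized a second time that share was 50.9%.

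The proteasome genes were also measured closely. Their median log2 fold change was -0.018, against 0.0091 over all genes, and their median absolute log2 fold change was 0.041, against 0.073. The sign of the median is not firm: it was 0.0037 with a second quantile normalization and 0.022 in a fit adjusted for a measure of RNA quality, the ratio of 3′ to 5′ signal. As reported 13 genes lay above 0 and 24 below, and with the second normalization 21 above and 16 below. The standard errors ran from 0.037 to 0.095 with a median of 0.047, against a median of 0.063 over all genes. For 29 of the 37 the 95% interval of the log2 fold change lay within 0.2 on both sides of 0, which held for 42.8% of all genes. Genes of similar brightness, the 1967 within 1 log2 unit of the median level of the 37, had their interval within those bounds in 49.3% of cases and were called in 16.5% of cases, 124 higher and 200 lower. These 1967 genes had a median log2 fold change of -0.019, near that of the proteasome genes, and a median absolute one of 0.082. Of them 43.4% lay above 0, against 35.1% of the 37. The 8 genes whose interval reached beyond the bounds were Psma1, Psma5, Psmc1, Psmc2, Psmc4, Psmd7, Psmd8 and Psmd13.

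**Figure D1:**
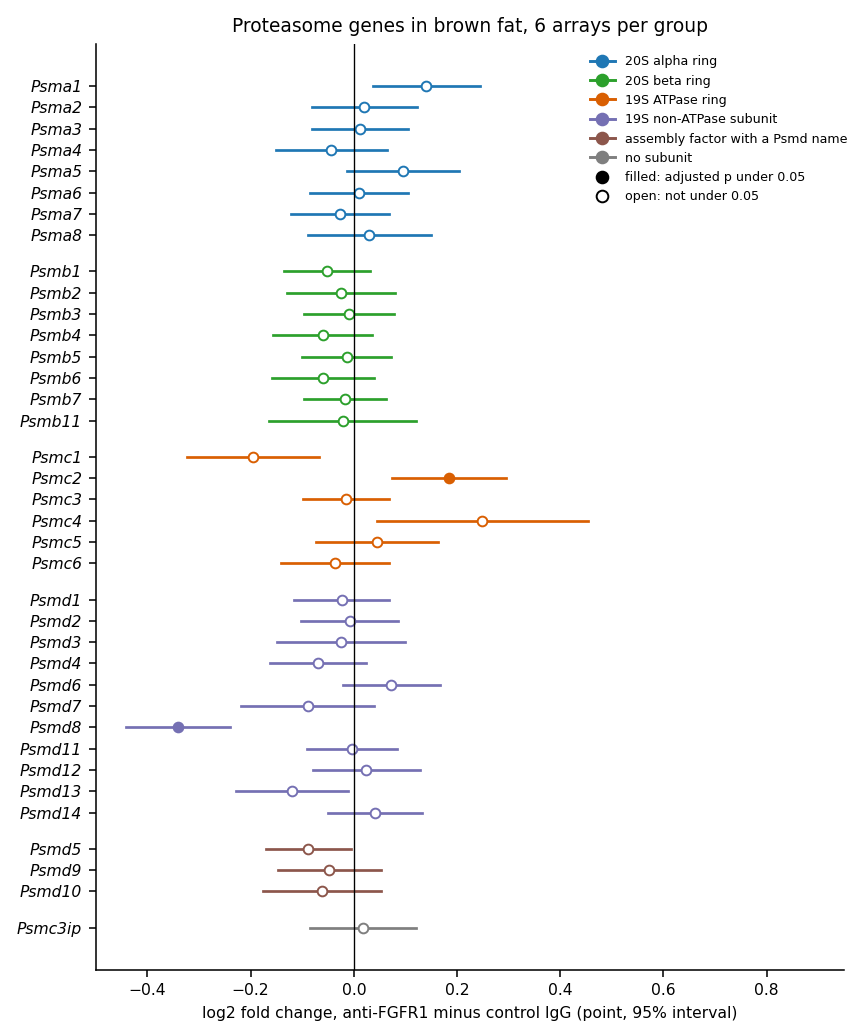
Log2 fold change of each of the 37 genes, anti-FGFR1 minus control IgG (horizontal axis), with the 95% interval as a line; colours mark the structural classes, and filled points have an adjusted p under 0.05. Psmd8 at -0.34 and Psmc2 at 0.19 are filled, and the intervals of all 8 beta ring genes cross 0.

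Psmd8 belongs to the lid of the 19S particle and is, in yeast, the last subunit to join it. Its lowest, median and highest values were 12.30, 12.44 and 12.51 in anti-FGFR1 mice, against 12.69, 12.80 and 12.82 in control IgG mice. All 6 anti-FGFR1 arrays lay below all 6 control arrays, and it was the only one of the 37 genes whose groups did not overlap, which was so for 5.12% of all genes. The mean was 12.43 ± 0.08 in anti-FGFR1 mice and 12.77 ± 0.06 in control IgG mice (SD, n = 6 each). The log2 fold change was -0.34 ± 0.05 (SE, 95% interval -0.44 to -0.24, limma adjusted p = 0.000536). Psmd8 passed the threshold in each of the 22 other settings run, at log2 fold changes between -0.37 and -0.29. It is represented by 1 probe set, so no second probe set could be set beside it.

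Markers of blood vessels fell in the same arrays. The mean of 13 endothelial markers ran from 9.21 to 9.42 in anti-FGFR1 mice, against 9.46 to 9.68 in control IgG mice, and 7 of the 13 genes fell while 0 rose. Over all genes 5.09% were called lower and 2.94% higher. The mean of 9 smooth muscle and pericyte markers ran from 9.65 to 9.78 in anti-FGFR1 mice, against 9.91 to 10.18 in control IgG mice, and 6 of the 9 fell while 0 rose. Both lists therefore separate the groups as Psmd8 does, and their part in its fall was not tested. In whole tissue, fewer cells of a type and less RNA per cell cannot be told apart.

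The promoters of both called genes are shown because they are the genes of the set that moved. They are RefSeq sequences of build GRCm38.p6, from 250 bases before to 50 after the start site, 5′ to 3′ on the gene's strand. Psmd8 has 1 such window, chr7:29180624-29180923 on the minus strand. Psmc2 has 2, chr5:21785025-21785324 and chr5:21786497-21786796, both on the plus strand. Capitals mark 3 motifs on either strand. The first motif is the CCAAT box. The second is CCGGAAG, a core of the ETS kind, which reads CTTCCGG on the other strand. The third is TGACNNNGC, the core of the antioxidant response element, the kind of site bound by Nfe2l1 and its relatives. No printed match overlaps another.
Psmd8: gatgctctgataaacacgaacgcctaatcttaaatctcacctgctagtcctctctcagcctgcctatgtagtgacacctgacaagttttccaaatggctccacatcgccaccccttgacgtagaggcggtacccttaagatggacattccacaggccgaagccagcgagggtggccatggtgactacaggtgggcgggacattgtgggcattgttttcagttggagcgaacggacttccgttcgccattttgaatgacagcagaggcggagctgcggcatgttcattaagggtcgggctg
Psmc2, first window: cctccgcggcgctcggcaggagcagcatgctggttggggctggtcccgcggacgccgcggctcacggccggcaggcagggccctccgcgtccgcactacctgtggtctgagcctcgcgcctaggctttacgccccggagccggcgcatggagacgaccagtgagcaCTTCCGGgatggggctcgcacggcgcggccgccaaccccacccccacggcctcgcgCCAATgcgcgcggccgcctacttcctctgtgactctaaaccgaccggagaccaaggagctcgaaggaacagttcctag
Psmc2, second window: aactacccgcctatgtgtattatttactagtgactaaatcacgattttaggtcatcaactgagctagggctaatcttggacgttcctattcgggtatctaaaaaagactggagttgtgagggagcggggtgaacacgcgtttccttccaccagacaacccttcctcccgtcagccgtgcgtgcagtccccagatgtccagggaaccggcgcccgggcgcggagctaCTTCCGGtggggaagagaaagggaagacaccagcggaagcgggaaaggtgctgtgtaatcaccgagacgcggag

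The Psmd8 window holds no exact match to those 3 motifs, while the first Psmc2 window holds CCAAT and CTTCCGG and the second holds CTTCCGG. The Psmd8 window does hold cttccgt, which differs from CTTCCGG in its last base alone. Only exact matches were counted, so other sites of the ETS kind were not looked for. The table held promoters of 30 of the 37 genes. Among those 30, TGACNNNGC was found in 5, namely Psmb5, Psmb6, Psmc6, Psmd9 and Psmd12, which is 16.7%, against 16.2% of the promoters of all genes tested. CCAAT was found in 13 of the 30, or 43.3%, against 6070 of the 14452 promoters of all genes tested. CCGGAAG was found in 11 of the 30, or 36.7%, against 2165 of those 14452 and 23.6% of those of the 1605 genes of similar brightness with a promoter. That motif was picked after the promoters had been looked at. Over all windows of the table the shares were 12.4% for TGACNNNGC, 37.4% for CCAAT and 8.86% for CCGGAAG. The promoters of Psma8, Psmb1, Psmb2, Psmb7, Psmc3, Psmd3 and Psmd7 were not analysed here.

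In 9 of the 11 genes a copy of CCGGAAG begins within the last 50 bases before the start site. These stretches, from build GRCm38.p6, are shown together because this motif alone of the 3 had a larger share than genes of similar brightness. However, it was picked after the promoters had been looked at, which favours a larger share, so that share is no test. Psmc3ip, which is no proteasome subunit, is among the 9 genes. Capitals mark the motif on either strand.
Psmc1, chr12:100110162-100110191, plus strand: ttggtggatgcaCTTCCGGcggtggcgatt
Psmc2, chr5:21786711-21786740, plus strand: ggcgcggagctaCTTCCGGtggggaagaga
Psma6, chr12:55398811-55398840, plus strand: tccgccggtgctCCGGAAGcagtagccata
Psmd2, chr16:20651614-20651643, plus strand: atccgcagggcgCTTCCGGtctggaggaca
Psmd6, chr14:14120973-14121002, minus strand: ccagagacgcgaCCGGAAGtcagactggcg
Psmd11, chr11:80428592-80428621, plus strand: gcgagggcgggtCTTCCGGgtgtgtgtttc
Psmd12, chr11:107479499-107479528, plus strand: atgagcgggcgaCTTCCGGtgcgagtgacg
Psmd13, chr7:140882376-140882405, plus strand: gcgcccgcggtgCCGGAAGtgagcgagcac
Psmc3ip, chr11:101095425-101095454, minus strand: cccgcctcctcaCCGGAAGgaggcgtttcc

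Of the 9 genes that share the motif there, Psmc2 rose, a call that depended on the setting. The other 8 did not pass the test, and their log2 fold changes lay between -0.20 for Psmc1 and 0.07 for Psmd6. Whether the motif bears on these values was not tested.

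The ATPase ring held the other called gene. Psmc2 had lowest, median and highest values of 11.79, 11.87 and 11.97 in anti-FGFR1 mice, against 11.58, 11.69 and 11.82 in control IgG mice. Of the 6 anti-FGFR1 arrays 4 lay above every control array, so the groups overlapped. The log2 fold change was 0.19 ± 0.05 (SE, 95% interval 0.07 to 0.30, limma adjusted p = 0.0401). Psmc2 has 3 probe sets, and the other bright one gave 0.07 ± 0.04, the dim one -0.02 ± 0.07 (SE). With the mean of its probe sets in place of the brightest, the log2 fold change was 0.08, with a limma adjusted p of 0.332. Psmc2 kept its call in 8 of the 22 other settings, of which 3 were among the 12 that leave out 1 array. It was called without anti-FGFR1 replicate 6 or without control IgG replicate 3 or 5, at log2 fold changes of 0.20, 0.21 and 0.20, and lost the call without any other array. Over all 12 of these fits the log2 fold change stayed between 0.16 and 0.21, with limma adjusted p between 0.0274 and 0.0929.

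Psmc1 and Psmc4 encode ATPases whose tails dock into the alpha ring. They did not pass the test and lay on opposite sides of 0. Psmc1 had lowest, median and highest values of 10.08, 10.25 and 10.34 in anti-FGFR1 mice, against 10.33, 10.38 and 10.60 in control IgG mice. Of the 6 anti-FGFR1 arrays 5 lay below every control array. The log2 fold change was -0.20 ± 0.06 (SE, limma adjusted p = 0.0600), and 4 of the 22 other settings called it, among them the fit without control IgG replicate 1. A second, dim probe set of Psmc1 gave a log2 fold change of 0.10 ± 0.09 (SE).

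Psmc4 had lowest, median and highest values of 10.81, 11.04 and 11.13 in anti-FGFR1 mice, against 10.48, 10.81 and 11.09 in control IgG mice. On the log2 scale it differed by 0.25 ± 0.10 (SE, limma adjusted p = 0.133), the highest value of the 37 genes and the one with the largest error. The SD was 0.12 among anti-FGFR1 arrays and 0.23 among control IgG arrays, and 2 of the 6 anti-FGFR1 arrays lay above every control array. Its second probe set gave 0.08 ± 0.07 (SE). Without control IgG replicate 5 the log2 fold change of Psmc4 was 0.31 and passed the threshold.

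The other 3 ATPases lay close to 0. Psmc3 averaged 11.14 ± 0.02 in anti-FGFR1 mice and 11.16 ± 0.05 in control IgG mice (SD, n = 6 each). Psmc5 averaged 10.98 ± 0.05 in anti-FGFR1 mice and 10.93 ± 0.12 in control IgG mice (SD, n = 6 each). Psmc6 averaged 10.84 ± 0.05 in anti-FGFR1 mice and 10.88 ± 0.09 in control IgG mice (SD, n = 6 each). The log2 fold changes of these 3 genes were -0.015, 0.05 and -0.04, so the 6 members of 1 ring, which assemble with 1 copy of each, spanned -0.20 to 0.25.

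**Figure D2:**
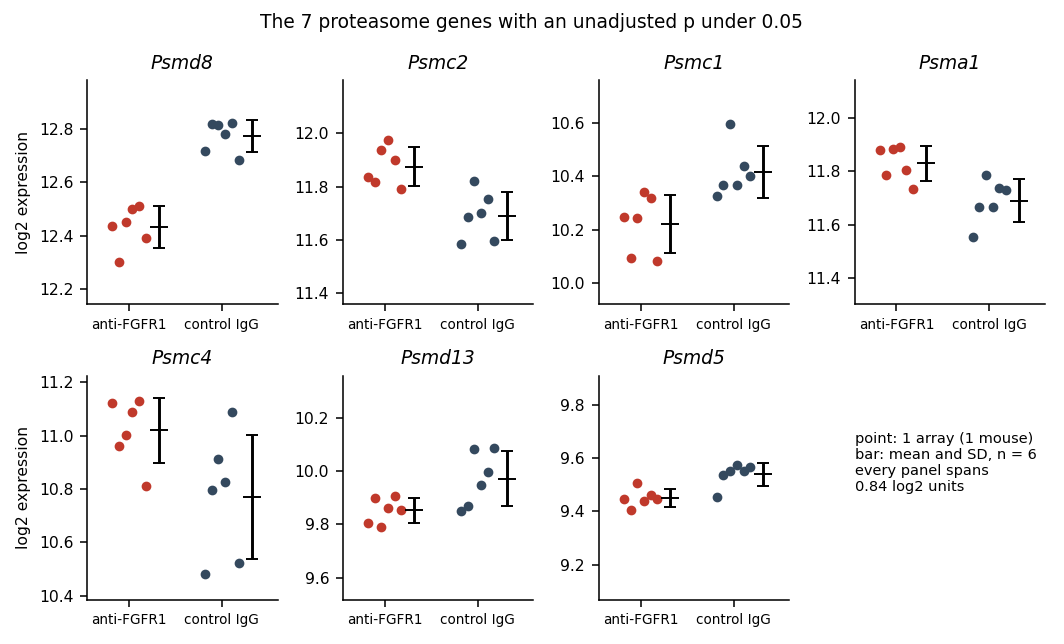
Log2 expression (vertical axis) of the 7 proteasome genes with an unadjusted p under 0.05, 1 point per array, with anti-FGFR1 on the left and control IgG on the right of each panel and the mean and SD as bars. These 7 are 18.9% of the 37 genes, a smaller share than the 22.4% of all genes with such a p. Of the 1967 genes of similar brightness 688 had such a p, which is also a larger share. Only in Psmd8 do the 2 groups lie apart, with anti-FGFR1 at 12.30 to 12.51 and control IgG at 12.69 to 12.82.

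In the alpha rings, which form the gate of the barrel, 0 of 8 genes passed the test. Psma1 came nearest. Its lowest, median and highest values were 11.74, 11.84 and 11.89 in anti-FGFR1 mice, against 11.55, 11.70 and 11.79 in control IgG mice. Of the 6 anti-FGFR1 arrays 4 lay above every control array, and the log2 fold change was 0.14 ± 0.05 (SE, limma adjusted p = 0.0964). It passed in 2 of the 22 other settings, with a second quantile normalization and with genes at or under the median level left out.

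Psma1 has 3 other probe sets, all dimmer, of which 2 lie above the array median. In the fit over all probe sets, which called 5.32% of them, 1 of these 3 was called, at 7.42, 7.64 and 7.83 in anti-FGFR1 mice, against 6.99, 7.16 and 7.41 in control IgG mice (lowest, median and highest). Its groups did not overlap, and its log2 fold change was 0.44 ± 0.09 (SE, limma adjusted p = 0.00642). Another, below the array median, gave 0.45 ± 0.15 (SE, limma adjusted p = 0.104) and the last 0.05 ± 0.10 (SE). All 4 probe sets of Psma1 thus lay above 0, between 0.05 and 0.45.

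Psma5 averaged 11.60 ± 0.06 in anti-FGFR1 mice and 11.50 ± 0.10 in control IgG mice (SD, n = 6 each). The log2 fold change of Psma5 was 0.10 ± 0.05 (SE, limma adjusted p = 0.289). It was called in 1 of the 22 other settings, at 0.20 in a fit that adjusts for the 3′ to 5′ signal ratio. The remaining subunits of the alpha rings of ordinary cells lay within 0.05 of 0. Their log2 fold changes were -0.04 for Psma4, -0.03 for Psma7, 0.0098 for Psma6, 0.01 for Psma3 and 0.02 for Psma2. Psma8, which replaces Psma7 in the testis, had a mean of 5.15 ± 0.09 in anti-FGFR1 mice and 5.12 ± 0.10 in control IgG mice (SD, n = 6 each). That is below the median signal of every array, which lay between 7.19 and 7.23.

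In the beta rings 0 of 8 genes passed the test, and 0 had an unadjusted p under 0.05, against 22.4% of all genes. All 8 of the 95% intervals lay between -0.16 and 0.12 on the log2 scale, that is, between -10.8% and 8.75%. Psmb5, Psmb6 and Psmb7 carry the cutting sites: Psmb5 cuts after hydrophobic, Psmb6 after acidic and Psmb7 after basic residues. Psmb5 had lowest, median and highest values of 12.53, 12.60 and 12.64 in anti-FGFR1 mice, against 12.50, 12.61 and 12.67 in control IgG mice. Psmb6 had 11.17, 11.23 and 11.28 in anti-FGFR1 mice, against 11.20, 11.28 and 11.38 in control IgG mice. Psmb7 had 12.98, 13.05 and 13.08 in anti-FGFR1 mice, against 13.04, 13.05 and 13.12 in control IgG mice. The groups overlapped in all 3, and the log2 fold changes were -0.014 ± 0.04, -0.06 ± 0.05 and -0.018 ± 0.04 (SE), in that order of genes.

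The structural beta subunits gave like values. Psmb1 averaged 11.48 ± 0.04 in anti-FGFR1 mice and 11.53 ± 0.05 in control IgG mice (SD, n = 6 each), and 5 of the 6 anti-FGFR1 arrays lay below every control array, at a log2 fold change of -0.05 ± 0.04 (SE). The log2 fold changes were -0.06 for Psmb4, -0.03 for Psmb2 and -0.0095 for Psmb3. Psmb11, which is made in the thymus, was dim, at 5.62 ± 0.11 in anti-FGFR1 mice and 5.64 ± 0.13 in control IgG mice (SD, n = 6 each). All 8 beta ring genes lay below 0, as did 46.6% of all genes, but 3 lay above 0 with a second quantile normalization, 2 with the mean of all probe sets and 4 in a fit adjusted for the 3′ to 5′ signal.

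Among the 11 non-ATPase subunits of the 19S particle Psmd8 was the only gene called. Psmd13, a lid subunit, had lowest, median and highest values of 9.79, 9.86 and 9.91 in anti-FGFR1 mice, against 9.85, 9.97 and 10.09 in control IgG mice. The groups overlapped, and its log2 fold change was -0.12 ± 0.05 (SE, limma adjusted p = 0.175). Its next brightest probe set also gave -0.12, and the other 2, also above the array median, 0.07 and 0.05. With macrophage markers as a covariate Psmd13 was at -0.19 and passed the threshold, the only one of the 22 other settings in which it did.

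Psmd14, the enzyme that takes ubiquitin chains off the substrate, averaged 11.72 ± 0.04 in anti-FGFR1 mice and 11.68 ± 0.07 in control IgG mice (SD, n = 6 each). Its partner Psmd7 averaged 9.60 ± 0.09 in anti-FGFR1 mice and 9.69 ± 0.12 in control IgG mice (SD, n = 6 each). Psmd4, a receptor for ubiquitin chains, averaged 11.86 ± 0.06 in anti-FGFR1 mice and 11.93 ± 0.06 in control IgG mice (SD, n = 6 each). None of these 3 differences passed the test, and their log2 fold changes were 0.04, -0.09 and -0.07. The large scaffold subunits Psmd1 and Psmd2, which also hold ubiquitin-binding shuttles, were at -0.02 and -0.0080.

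Of the other lid subunits 0 passed the test. The log2 fold changes were -0.03 for Psmd3, 0.07 for Psmd6, -0.0036 for Psmd11 and 0.02 for Psmd12, each with an SE between 0.04 and 0.06. Psmd6 averaged 11.42 ± 0.05 in anti-FGFR1 mice and 11.35 ± 0.07 in control IgG mice (SD, n = 6 each), with 3 of the 6 anti-FGFR1 arrays above every control array. Psmd11, with 8 probe sets, had the tightest anti-FGFR1 values of the lid, 12.51 ± 0.01 against 12.52 ± 0.07 in control IgG mice (SD, n = 6 each), and its probe sets ran from -0.10 to 0.06. Whether Psmd8 differs from its neighbours was not tested.

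The assembly factors Psmd5, Psmd9 and Psmd10 hold the ATPase ring while it is built. None passed the test. Psmd5 had lowest, median and highest values of 9.40, 9.45 and 9.51 in anti-FGFR1 mice, against 9.45, 9.55 and 9.57 in control IgG mice, and 4 of the 6 anti-FGFR1 arrays lay below every control array. For Psmd5 the log2 fold change was -0.09 ± 0.04 (SE, limma adjusted p = 0.187). Psmd9 and Psmd10 were at -0.05 ± 0.05 and -0.06 ± 0.05 (SE). Psmc3ip, the recombination cofactor, averaged 7.66 ± 0.09 in anti-FGFR1 mice and 7.64 ± 0.05 in control IgG mice (SD, n = 6 each). A second probe set of Psmc3ip, dimmer than the array medians, was called at 0.25 ± 0.06 (SE, limma adjusted p = 0.0145), with all 6 anti-FGFR1 arrays at 5.58 to 5.77 and all controls at 5.33 to 5.52.

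Over all 76 probe sets of the 37 genes, 3 were called in the fit over probe sets, beside 5.32% of all probe sets. They were the probe set of Psmd8, lower, and 1 probe set each of Psma1 and Psmc3ip, higher, of which only that of Psmc3ip lies below the array median. The probe set that stood for Psmc2 was not called in that fit (limma adjusted p = 0.0610). Where a gene had several probe sets above the array median, they lay on the same side of 0 in 7 of 16 genes and on both sides in 9.

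**Figure D3:**
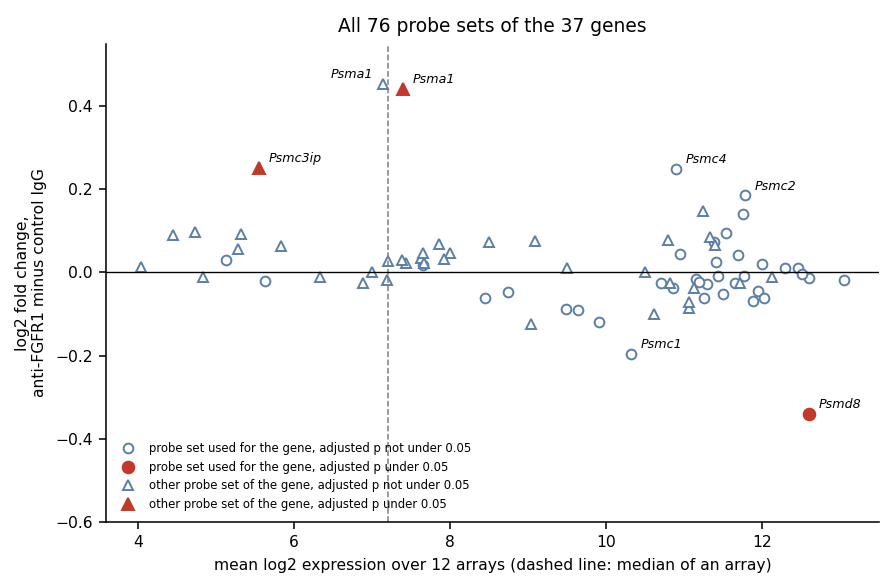
Log2 fold change, anti-FGFR1 minus control IgG (vertical axis), of the 76 probe sets against their mean log2 expression over the 12 arrays (horizontal axis); circles are the probe sets used for a gene, triangles the others, and filled red marks have an adjusted p under 0.05 over all probe sets. Psmd8, at -0.34, is the only probe set past the threshold below 0, and the 2 past it above 0, of Psma1 at 0.44 and Psmc3ip at 0.25, are dimmer than it.

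The group means of the 37 genes differed by -0.014, less than the spread between arrays of a group. The mean of the genes was 10.88 ± 0.03 in anti-FGFR1 mice, at 10.82 to 10.91, and 10.89 ± 0.05 in control IgG mice, at 10.82 to 10.96 (SD, n = 6 each). Control IgG replicate 3 was high: 34 of the 37 genes were above their mean over 12 arrays there, and 17 had their highest control value. Anti-FGFR1 replicate 2 and control IgG replicate 1 were low, with 8 of 37 genes above that mean in each, and 19 and 17 genes at the lowest value of their group. Over all genes the median deviation of those 3 arrays lay between -0.0016 and 0.00097. Averaged over each ring, the alpha subunits without Psma8 stood at 11.92 ± 0.05 in anti-FGFR1 mice and 11.89 ± 0.06 in control IgG mice, each ± SD with n = 6. The beta subunits without Psmb11 ran from 11.90 to 11.99 in anti-FGFR1 mice and from 11.95 to 12.07 in control IgG mice. The ATPases averaged 11.01 ± 0.05 in anti-FGFR1 mice and 10.97 ± 0.10 in control IgG mice, and the other 19S subunits 11.28 ± 0.03 in anti-FGFR1 mice and 11.33 ± 0.06 in control IgG mice (SD, n = 6 each). Each of the 4 ranges overlapped between groups.

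**Figure D4:**
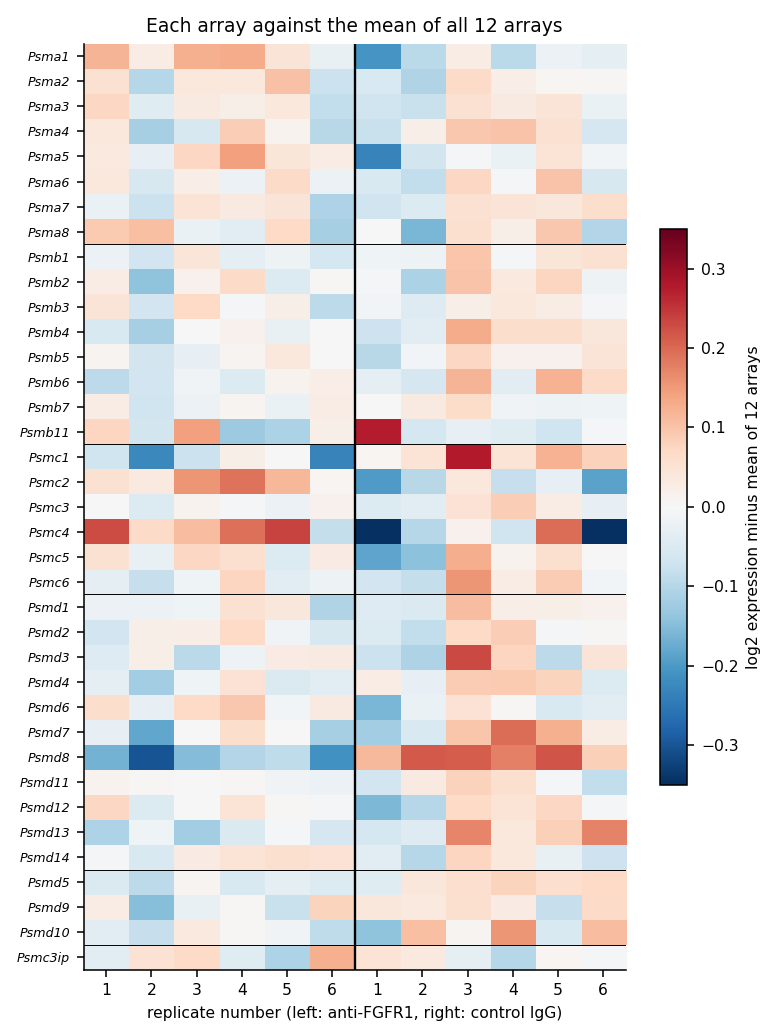
Each gene (rows, by class) on each array (columns, anti-FGFR1 on the left and control IgG on the right), coloured by its log2 expression minus its mean over the 12 arrays. The Psmd8 row is blue in all 6 anti-FGFR1 columns and red in all 6 control columns, and the column of control IgG replicate 3 is red in 34 of 37 rows.

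A measure of RNA quality differed between groups and is given for that reason. The log2 ratio of 3′ to 5′ signal of the control probe sets of Actb and Gapdh, which grows as RNA breaks down, was 0.203 ± 0.027 in anti-FGFR1 mice and 0.161 ± 0.031 in control IgG mice (SD, n = 6 each). An exact permutation test of the difference in means, two-sided, gave p = 0.0368. Anti-FGFR1 replicate 2, where the proteasome genes were lowest in their group, had the highest ratio of that group at 0.232, and control IgG replicate 1, likewise lowest, had the highest of its group at 0.221. Anti-FGFR1 replicate 4 and control IgG replicate 3, where the genes were highest, had the lowest ratios, 0.161 and 0.139. Anti-FGFR1 replicate 6 departed from this, with a low mean of 10.85 and a ratio of 0.180. So did anti-FGFR1 replicates 1 and 3, with higher means of 10.89 and 10.90 at high ratios of 0.218 and 0.216. In a fit adjusted for the ratio Psmd8 was at -0.29 and Psmc2 at 0.25, and both were called. The part of RNA quality in the other values was not tested.

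Other genes of the ubiquitin and proteasome pathway were drawn from 7 lists of 43 genes, of which 33 were measured. Of these, 0 rose and 1 fell, beside 8.03% of all genes called. An unadjusted p under 0.05 was found for 7 of the 33, or 21.2%, against 22.4% of all genes. In the immunoproteasome list, 4 genes were measured and 0 passed. Psme1, part of a cap that opens the core without ATP, averaged 11.35 ± 0.10 in anti-FGFR1 mice and 11.21 ± 0.09 in control IgG mice (SD, n = 6 each). The log2 difference was 0.14 ± 0.06 (SE, limma adjusted p = 0.147). Psmb8 and Psmb10, which replace cutting subunits in immune cells, were at 0.02 ± 0.12 and -0.07 ± 0.06 (SE).

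Of 8 activators, inhibitors and associated proteins measured, 0 passed. Uchl5 and Usp14 are ubiquitin-removing enzymes that sit on the 19S particle. Uchl5 averaged 9.65 ± 0.07 in anti-FGFR1 mice and 9.84 ± 0.12 in control IgG mice (SD, n = 6 each). The log2 difference was -0.19 ± 0.06 (SE, limma adjusted p = 0.0623). Usp14 was at 0.13 ± 0.06 (SE), and Psme4, the large cap also known as PA200, at -0.11 ± 0.05 (SE). The other probe sets of Usp14 lay below 0, at -0.07, -0.16 and -0.01, and none was called. Of 5 assembly chaperones measured 0 passed, with Psmg4 at -0.15 ± 0.05 (SE, limma adjusted p = 0.0794), Psmg3 at -0.12 ± 0.05 and Psmg1 at 0.06 ± 0.05 (SE). Uchl5 was called in 4 of the 22 other settings, Psmg4 in 3 and Usp14 in 1, while Psme4, Psmg3 and Psmg1 were called in 0.

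Among 5 measured genes of transcriptional control, Stat3, a transcription factor activated by cytokine receptors, fell. Its lowest, median and highest values were 10.71, 10.78 and 10.84 in anti-FGFR1 mice, against 10.94, 11.08 and 11.18 in control IgG mice. The groups did not overlap, and the log2 fold change was -0.30 ± 0.05 (SE, limma adjusted p = 0.00113). Its other probe sets gave -0.18, -0.01 and -0.20, and 0 of those 3 were called. Nfe2l1, the factor known to raise proteasome genes, had 11.61, 11.69 and 11.71 in anti-FGFR1 mice, against 11.70, 11.76 and 11.80 in control IgG mice. Its log2 fold change was -0.08 ± 0.04 (SE, limma adjusted p = 0.230). Ngly1, which removes sugars from Nfe2l1 protein and so helps to activate it, was at 0.05 ± 0.04 (SE).

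Uba6, an enzyme that activates ubiquitin, was the 1 measured gene of 6 in its list and stood at -0.08 ± 0.06 (SE). Of 8 genes that deliver substrates 0 passed. Among them Faf1, Nploc4 and Ufd1, cofactors of the unfolding enzyme Vcp, were at -0.08, -0.06 and 0.07. The remaining genes of the 7 lists, outside the 33 measured, were not analysed here.

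Fbxo32 and Trim63 encode ubiquitin ligases known from wasting muscle. Fbxo32 had lowest, median and highest values of 7.44, 9.51 and 10.01 in anti-FGFR1 mice, against 7.95, 8.65 and 8.92 in control IgG mice, a log2 difference of 0.69 ± 0.35 (SE, limma adjusted p = 0.259). Trim63 had 5.22, 10.54 and 10.92 in anti-FGFR1 mice, against 7.15, 9.79 and 9.98 in control IgG mice, a log2 difference of 0.37 ± 0.84 (SE, limma adjusted p = 0.845). Neither passed, and 5 and 4 of the 6 anti-FGFR1 arrays lay above every control array. Skeletal muscle RNA varied widely between these samples: the mean of 15 muscle markers ran from 6.87 to 11.45 in anti-FGFR1 mice and from 9.40 to 11.62 in control IgG mice, and 0 of the 15 were called. Anti-FGFR1 replicate 5, lowest in muscle markers, was also lowest in both ligases. With the muscle marker mean as a covariate, Fbxo32 was at 1.01 ± 0.11 and Trim63 at 1.16 ± 0.20 (SE, limma adjusted p = 0.000162 and 0.00280), and both were called. Without anti-FGFR1 replicate 5 Fbxo32 was at 1.04 and also called (limma adjusted p = 0.00682). Of the 22 other settings, 3 called Fbxo32 and 1 called Trim63, and Trim63 was called in 0 of the 12 that leave out 1 array. Other probe sets of Fbxo32 gave 0.71 ± 0.28 and 0.13 ± 0.13 (SE), and neither was called in the fit over probe sets.

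**Figure D5:**
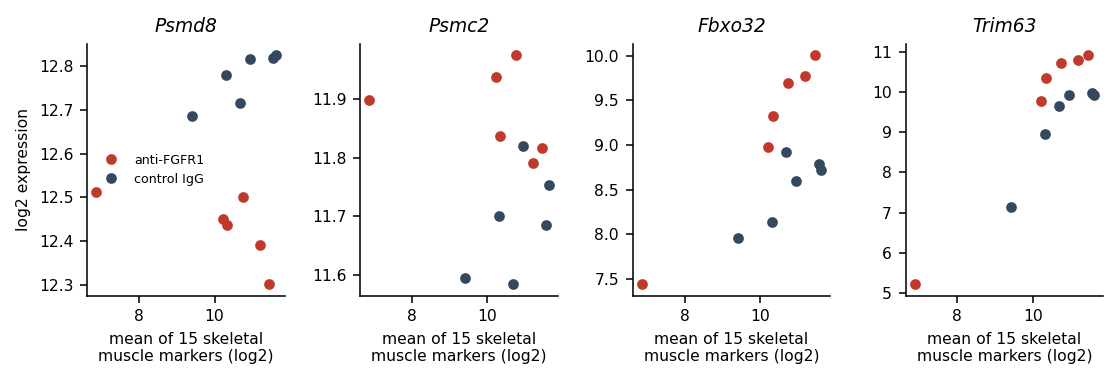
Log2 expression of Psmd8, Psmc2, Fbxo32 and Trim63 (vertical axes) on each array against the mean of 15 skeletal muscle markers (horizontal axes), in anti-FGFR1 mice (red) and control IgG mice (dark). Psmd8 is lower in each anti-FGFR1 array than in every control array. Muscle marker means run from 6.87 to 11.45 in anti-FGFR1 mice and from 9.40 to 11.62 in control IgG mice, so no control lies at the low end. The lowest points of Fbxo32 and Trim63, at 7.44 and 5.22, belong to the anti-FGFR1 array at 6.87.

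Marker levels describe the samples but do not test the tissue label, since values do not rank genes against each other. The mean of 11 brown fat markers was 11.25 ± 0.07 in anti-FGFR1 mice and 11.15 ± 0.12 in control IgG mice (SD, n = 6 each), with 2 genes higher and 1 lower. Ucp1, the uncoupling protein of brown fat, averaged 14.55 ± 0.05 in anti-FGFR1 mice and 14.52 ± 0.04 in control IgG mice, and Adipoq, a fat cell hormone, 14.24 ± 0.08 in anti-FGFR1 mice and 14.16 ± 0.03 in control IgG mice (SD, n = 6 each). Fgfr1 itself averaged 10.44 ± 0.21 in anti-FGFR1 mice and 10.64 ± 0.12 in control IgG mice (SD, n = 6 each), a difference that did not pass the test (limma adjusted p = 0.197). Beside the vessel and muscle markers given above, the mean of 13 macrophage markers ran from 10.23 to 10.63 in anti-FGFR1 mice and from 9.95 to 10.63 in control IgG mice, with 3 genes higher and 0 lower. Of 5 B cell markers 2 were higher and 0 lower, with means of 7.12 to 7.47 in anti-FGFR1 mice and 6.97 to 7.13 in control IgG mice. Of 9 fibroblast markers 3 were higher and 2 lower, with means of 10.40 to 10.81 in anti-FGFR1 mice and 10.30 to 10.77 in control IgG mice. Of 8 granulocyte and mast cell markers 2 were higher and 1 lower, with means of 6.95 to 7.21 in anti-FGFR1 mice and 6.81 to 7.10 in control IgG mice. Of 8 T cell markers 0 were called, of 3 Schwann cell markers 1 was higher and 1 lower, and of 3 red blood cell markers 1 was lower. These counts stand beside 2.94% of all genes called higher and 5.09% called lower. With the macrophage mean as a covariate Psmd8 stayed called at -0.34, while Psmc2, at 0.17, did not (limma adjusted p = 0.102). All 12 arrays correlated with each other at 0.990 to 0.997 over probe sets, and no pair shared over 0.0665% of its values.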

How the data were processed

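The deposited table holds 1 log2 expression value per probe set and array, made by the authors with RMA, per the submitters' processing notes. RMA corrects background, normalizes arrays together and sums up the probes of a set, which shrinks changes of dim probe sets. limma is named there too, and no version is stated. Of 45101 probe sets, 34945 had a single gene in the platform's probe table and were used. The rest stayed out, among them 932 with several genes, 9211 not listed and 64 control probe sets, classes that overlap. The brightest probe set on average over the 12 arrays stood for a gene, which gave 18193 genes.

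The group difference was fitted in limma (version 3.58.1, run in R 4.3.3) by lmFit with eBayes, two-sided and with no covariate. P-values were adjusted over all genes, and again over all 45037 probe sets. The test was tried on simulated data. The genes, lists and alternatives were chosen with earlier results of these data known. All 37 genes are named, and up to 3 of each pathway list, those with the smallest p. The labels state 6 mice per group. The alternatives were 2 scalings, the probe set rule, a filter on dim genes, the variance model, a replicate block, 3 covariates and leaving out arrays.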

Additional observations from a re-analysis of the deposited data

Results flagged for a closer look

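In 110 groups of 6 arrays, 55 genes in 2 groups each, 7 had 1 array far from the other 5 by Dixon's 95% criterion, which sets the gap to the nearest array against the whole range. That is 6.36% of the groups, where chance gives about 5%. Among the proteasome genes, Psmb11 was highest in control IgG replicate 1, at 5.90, with the next array at 5.62 and the lowest at 5.56. Psmd5 was lowest in the same array, at 9.45, with the others at 9.54 to 9.57. Psmd9 was lowest in control IgG replicate 5, at 8.66, with the others at 8.77 to 8.81. Among the other pathway genes, Psmb8 was highest in anti-FGFR1 replicate 1, at 9.15, with the next at 8.64 and the lowest at 8.47. Nfe2l1 was lowest in anti-FGFR1 replicate 6, at 11.61, with the others at 11.67 to 11.71. Trim63 was lowest in anti-FGFR1 replicate 5, at 5.22, with the others at 9.78 to 10.92, and in control IgG it was lowest in replicate 6, at 7.15, with the others at 8.95 to 9.98. The mean of the 15 skeletal muscle markers was also lowest of its group in both of those arrays, at 6.87 and 9.40.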

How the results depend on the processing

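The fall of Psmd8 kept its direction and passed the threshold under each of the 22 alternatives run, while the rise of Psmc2 kept its direction and passed under 8 of them. The number of proteasome genes called, 2 as reported, was 1 with each array centred on its median, with the mean of all probe sets of a gene, with skeletal muscle markers as a covariate and without the array lowest in muscle markers in each group, and 4 with genes at or under the median level left out, where 18.1% of the genes tested were called, against 8.03% as reported. It was 1 to 3 when 1 array was left out at a time. The number of all genes called was 1461 as reported, 688 in the fit adjusted for the 3′ to 5′ signal ratio, 2138 in that adjusted for macrophage markers, and 1043 to 1698 when 1 array was left out. The replicate numbers in the titles were used as a replicate block in a further fit, which called 2 proteasome genes and 1337 genes in all and changed no call named here. Deviations from the group mean of same-numbered arrays correlated at -0.17 to 0.25, over 0.1 in 3 of the 6 numbers, so the numbers were not taken to pair the mice. Genes that lost or gained a call, Psmc2 among them, did so for reasons that were not tested. Some genes that were not called in the reported fit changed the side of 0 on which they lay, and the cause was not tested. With second quantile normalization the log2 fold change was 0.00027 for Psma7, 0.00073 for Psmb2, 0.015 for Psmb3, 0.0037 for Psmb5, 0.0069 for Psmc3, 0.027 for Psmd2, 0.0040 for Psmd3 and 0.011 for Psmd11. With the mean of all probe sets of a gene it was -0.0058 for Psma6, 0.013 for Psmb1, 0.012 for Psmb4, 0.00039 for Psmc6, 0.041 for Psmd2, 0.0014 for Psmd7, -0.031 for Usp14 and -0.0053 for Ufd1. Adjusted for the 3′ to 5′ signal ratio it was 0.028 for Psma4, 0.012 for Psma7, 0.032 for Psmb2, 0.013 for Psmb4, 0.039 for Psmb5, 0.00093 for Psmb7, 0.022 for Psmc3, 0.043 for Psmc6, 0.0095 for Psmd1, 0.032 for Psmd2, 0.029 for Psmd3, 0.017 for Psmd7, 0.025 for Psmd11 and -0.0079 for Psmc3ip. With skeletal muscle markers as a covariate it was -0.0010 for Psma2 and 0.0021 for Psmd11, and with macrophage markers -0.0092 for Psma2, 0.017 for Psmb11, 0.0035 for Psmd11 and -0.044 for Psmb8. Without the 2 arrays lowest in muscle markers it was -0.013 for Psma6. Leaving out 1 array at a time gave log2 fold changes on both sides of 0 for Psma3 -0.0025 to 0.030, Psmd2 -0.026 to 0.0087, Psmb8 -0.086 to 0.081, Psmb3 -0.024 to 0.0079, Psmb11 -0.052 to 0.031, Psma6 -0.0065 to 0.031, Psmd11 -0.021 to 0.012, Psmc3ip -0.0049 to 0.042, Psmd12 -0.0046 to 0.041, Psmd3 -0.049 to 0.018, Psmc3 -0.026 to 0.00068 and Trim63 -0.056 to 1.25. Dim probe sets limit what can be seen, since arrays give no counts and signal near background understates a change. Which arrays were normalized together is not given in the sources used here. A single probe set stands for Psmd8 and for 16 of the other genes, whose values no second probe set checks.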

Other observations

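Some further probe sets of the other pathway genes were called where the brightest probe set of the gene was not. They were picked out after their values were seen. Of the 80 probe sets of the 33 measured genes, 4 were called in the fit over all probe sets, 0 higher and 4 lower. That is 5%, no larger a share than the 5.32% of all probe sets. One is the probe set of Stat3 already described. A dimmer probe set of Nfe2l2, the oxidative stress factor related to Nfe2l1, had lowest, median and highest values of 6.15, 6.46 and 6.73 in anti-FGFR1 mice, against 7.56, 8.11 and 8.23 in control IgG mice. Its groups did not overlap, and its log2 fold change was -1.59 ± 0.12 (SE, limma adjusted p = 5.59e-06). The brightest probe set of Nfe2l2 stood at 10.69 to 10.98 in anti-FGFR1 mice, against 10.28 to 10.92 in control IgG mice, with a log2 fold change of 0.11 ± 0.10 (SE). Both carry the same gene name in the probe table, and which of them follows the Nfe2l2 messenger RNA was not tested.

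Psmf1, an inhibitor of the 20S core, had a dimmer probe set at 7.71, 7.87 and 7.97 in anti-FGFR1 mice, against 8.04, 8.21 and 8.41 in control IgG mice (lowest, median and highest). Its log2 fold change was -0.36 ± 0.07 (SE, limma adjusted p = 0.00460), while the brightest probe set of Psmf1 gave -0.08 ± 0.06 and the others -0.07 ± 0.06 and -0.03 ± 0.08 (SE). Psme4 has 6 probe sets, of which a bright one had 10.66, 10.73 and 10.87 in anti-FGFR1 mice, against 10.90, 11.02 and 11.10 in control IgG mice. Its log2 fold change was -0.26 ± 0.05 (SE, limma adjusted p = 0.00955), against -0.11 for the brightest. All 6 lay below 0, between -0.26 and -0.02, and 1 was called. In each of these 3 probe sets all 6 anti-FGFR1 arrays lay below all 6 control arrays. Over all genes, each by its brightest probe set, the groups lay apart in either direction for 5.12%. That share is no test of these 3, which are not the brightest and were picked after their values were seen.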
